A study of Erythranthe guttata with 80 samples.

Results

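A set of 111 genes, of 28140 in the count table, fell step by step through the leaf stages of coastal perennial Mimulus guttatus. Their mean level dropped from 2leaf to 4leaf, again to 6leaf and again to 8leaf. Members were chosen on Coast leaf means of CPM (counts of a gene scaled to a library total of 1000000). A member had 4 strictly falling means, at least 5 CPM at 2leaf, and a ratio of (2leaf + 0.5) over (8leaf + 0.5) of at least 3. Of the 113 genes that met this rule, 2 that the study pairs with an identifier were left out. At the minimum level in Coast 2leaf leaves there were 10830 genes in all, and 821 of them had the falling order at any fold.

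RNA was measured in 80 plants by 3′-Tag-Seq, which reads only the 3′ end of transcripts. There were 10 plants in each of 8 groups, and 1 tissue was taken from each plant. The Coast plants were SWB-4, a coastal perennial accession sampled as leaves at the 2leaf, 4leaf, 6leaf and 8leaf stages and as floral buds. The Inland plants were LMC-17, an inland annual accession sampled at 2leaf, 4leaf and bud, since those plants often flower after the 4leaf stage. All plants came from selfed seed and grew in the same chamber without any treatment. With 1 inbred accession standing for each ecotype, effects of ecotype and accession cannot be told apart. Library totals ran from 1256776 to 6090402 counts, with a median of 3839604. Each of the 4 library pools held 2 or 3 plants of every group. The 7 photosynthesis and chloroplast genes that the study names as hubs, which mark green leaf tissue, had group means of 221 to 1098 CPM in the 6 leaf groups and 31.8 to 209 CPM in buds.

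Leaves that form one after another on a shoot differ in size, shape and physiology, and the genes that a young plant uses in its first leaves need not be those it uses in later ones. A perennial that keeps making leaves passes through more of these positions before it flowers than an annual does. The identifiers of the 111 genes carry no gene name in the sources used here, and 0 of the 28140 identifiers could be matched to the reference gene table, so the genes are given by identifier and described by level, without a role. Since each value comes from a whole leaf pair or bud, fewer cells of a type and less RNA per cell cannot be told apart.

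One library stood apart. In plant 4 of Inland 4leaf the 111 genes took 0.579% of the counts, and the other 9 plants of that group ranged from 1.25% to 2.07%. The genes with the mirrored pattern (557 genes rising through the Coast leaf stages) had a mean of 3.97 log2(CPM + 0.5) in that plant, against a group median of 2.06. Plant 9 of Coast 2leaf was the lowest of its group, at 0.948% where the median was 1.48%. Both plants are included below. Many of the counts and medians over members that use Inland 4leaf are also given without its plant 4, but not all. The others, among them the members' median fitted changes and the correlations from plant to plant, are given only with it.

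In Coast leaves, the median of the members' mean levels was 25.9 CPM at 2leaf and 15.5 CPM at 4leaf, then 7.18 CPM at 6leaf and 3.93 CPM at 8leaf. Summed over the set, the 111 genes took 1.44% ± 0.217 of a library's counts in the 2leaf plants, 0.889% ± 0.195 in the 4leaf plants, 0.406% ± 0.111 in the 6leaf plants and 0.272% ± 0.0991 in the 8leaf plants (SD, n = 10 each). Because the rule used these means, the fall is a description of the members and was not tested. The ratio of 2leaf to 8leaf had a median of 4.61, with quartiles of 3.67 and 7.40 and a maximum of 33.8. The 3 members nearest to the fold of 3 had ratios of 3.02, 3.02 and 3.08, and the nearest genes on the other side had 2.98, 2.98 and 2.97. The lowest member had 5.02 CPM at 2leaf and the nearest gene under the minimum had 4.79 CPM.

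**Figure D1:**
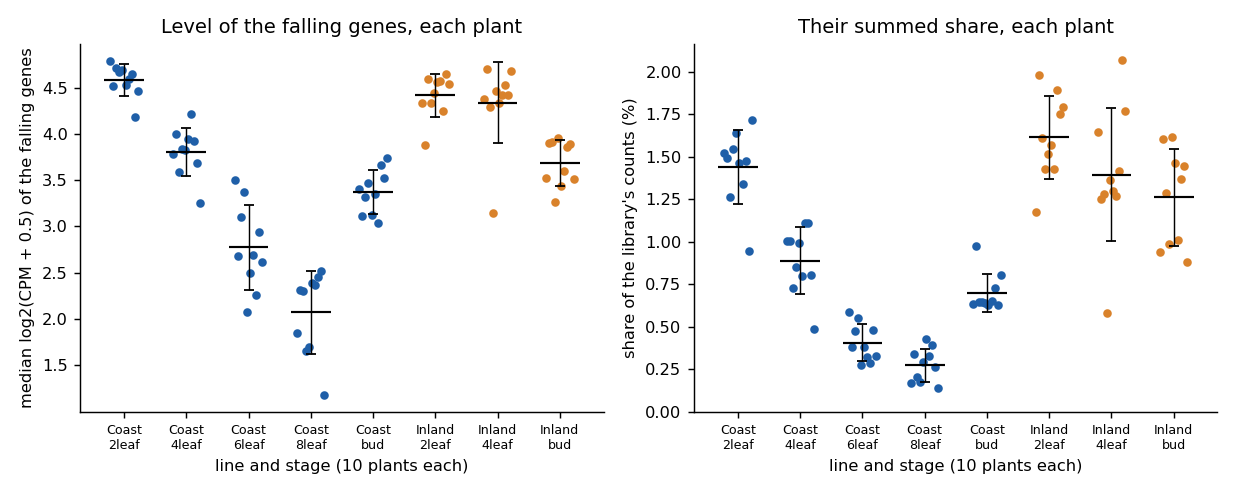
Levels of the 111 genes in every plant, with the mean (bar) and SD (whiskers) of the 10 plants of each group. The left panel shows the median log2(CPM + 0.5) over the genes and the right panel their share of the library's counts in percent, which falls from 1.44% to 0.272% through the Coast leaf stages and lies at 1.61% and 1.39% in the Inland leaf groups.

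The fall was not even across the steps. Its median size on the log2(CPM + 0.5) scale was 0.83 from 2leaf to 4leaf, 0.95 from 4leaf to 6leaf and 0.57 from 6leaf to 8leaf. The largest of the 3 steps was the first in 43 genes, the second in 58 and the last in 10. For 87 of the 111, every 2leaf plant lay above every 8leaf plant. This separation was shown by 0.984% of all 28140 genes, a base that includes genes under the minimum level. In a fit of the Coast leaf stages alone, all 111 were called lower at 8leaf than at 2leaf (23.5% of genes tested were called lower) and 72 lower at 4leaf than at 2leaf (7.56% of genes tested). These comparisons are the ones the rule used, so nothing is read from them.

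Within single library pools, where each Coast leaf group has 2 or 3 plants, the falling order was kept by 79, 70, 92 and 96 of the members in pools 1 to 4. The fold of 3 was reached by 84, 95, 99 and 103 of them, by 95 in at least 3 pools and by 66 in every pool. The pools split the same 40 Coast leaf libraries that the rule used. These counts are therefore a description and not a replication of the fall.

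The members differed widely in level. At Coast 2leaf, 90 had a mean of at least 10 CPM, 18 of at least 100 CPM and 4 of at least 1000 CPM. The 2 highest made up 29.7% of the summed CPM of the set, and the 12 highest made up 77.3%. Thus the summed share above follows a small number of abundant genes, while the medians follow the whole set.

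Migut.D01407, the most abundant member at Coast 2leaf, had 917 to 4346 CPM over the 2leaf plants, with a median of 1986. At 8leaf its values were 110 to 1133 CPM, with a median of 442. The lowest 2leaf plants thus overlapped the highest 8leaf plants. In the Inland groups its levels were scattered over plants, with 713 to 8861 CPM at 2leaf, 330 to 8475 CPM at 4leaf and 799 to 6056 CPM in buds.

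Migut.M00808, second in level, had 1109 to 2604 CPM at Coast 2leaf (median 2164) and 197 to 555 CPM at 8leaf (median 444), with no overlap. Its Inland leaves had 1849 to 3425 CPM at 2leaf and 1451 to 3302 CPM at 4leaf, all above the Coast 8leaf plants. The Inland 4leaf medians of the 2 genes, 2023 and 2425 CPM, were above their Coast 2leaf medians. At Inland 2leaf the median of Migut.D01407 was 1334 CPM, below its Coast 2leaf median, and that of Migut.M00808 was 2782 CPM, above its Coast 2leaf median.

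The largest ratio belonged to Migut.F02093, which had 4.33 to 41.5 CPM at Coast 2leaf, with a median of 13.0. At 8leaf it had 1 count over all 10 plants. Over group totals this was a ratio of 701, with an exact 95% interval of 125 to 27716 that covers counting error only. In Inland leaves it had medians of 15.6 CPM at 2leaf and 4.65 CPM at 4leaf, so its median was also lower at the later Inland stage.

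Migut.E00169 had the second largest ratio. Its values were 21.7 to 123 CPM at Coast 2leaf (median 87.6), 16.4 to 61.1 CPM at 4leaf (median 46), 0.538 to 23.3 CPM at 6leaf (median 4.55) and 0.253 to 7.58 CPM at 8leaf (median 1.56). The 6leaf plants were thus spread over a wide range between high and low plants, while the 8leaf plants were all low. In Inland leaves the medians were 153 CPM at 2leaf and 117 CPM at 4leaf, and no Inland leaf plant was below 46.4 CPM.

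**Figure D2:**
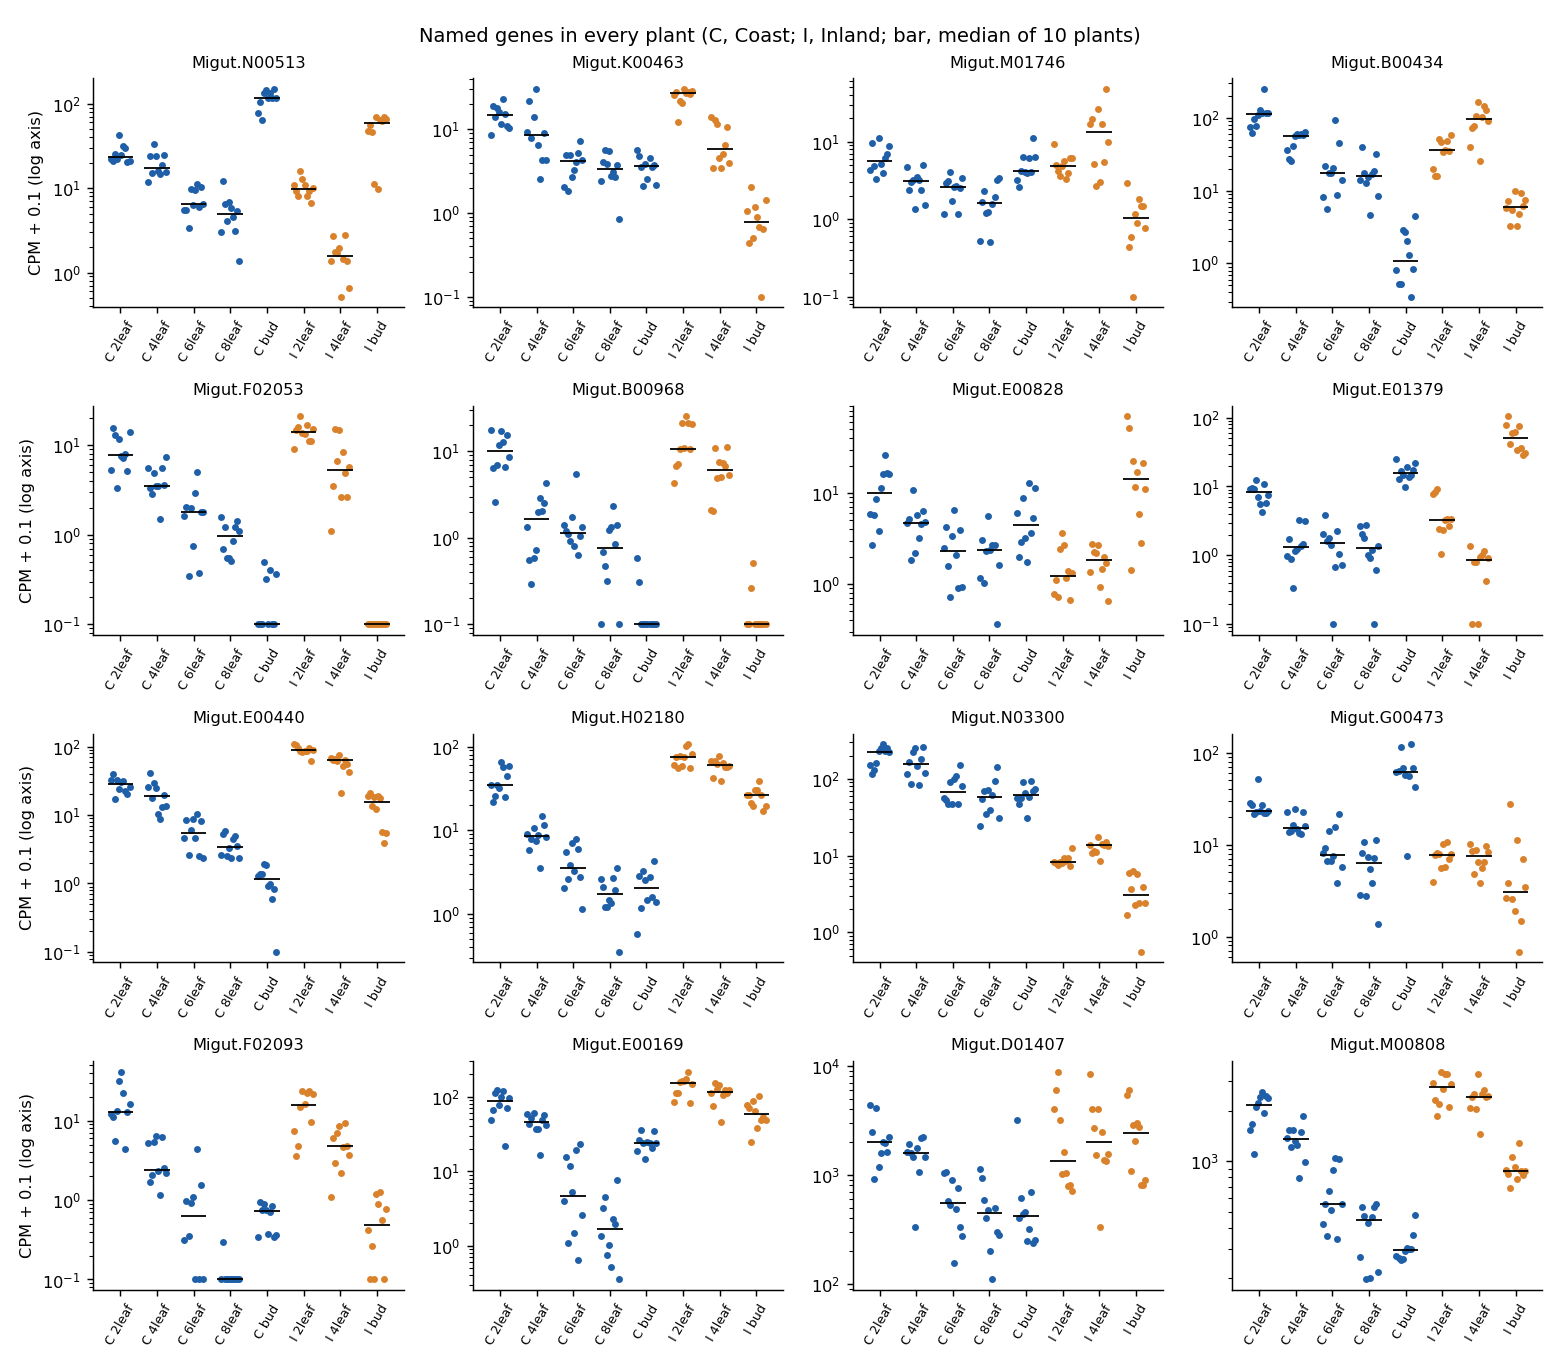
CPM + 0.1 on a log axis for each named gene in every plant, with blue points for Coast, orange points for Inland and a bar at the median of 10 plants. Migut.F02093 has 1 count in all Coast 8leaf plants together, and Migut.F02053 has 0 counts in Inland buds.

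As a set, the members had a similar median level in Inland leaves and in the first Coast leaves, while single members lay on both sides. The median of the members' means was 23.3 CPM at Inland 2leaf and 24.02 CPM at Inland 4leaf, against 25.9 CPM at Coast 2leaf. They took 1.61% ± 0.244 of the counts in Inland 2leaf plants and 1.39% ± 0.392 in Inland 4leaf plants (SD, n = 10 per group). Without plant 4 of Inland 4leaf the latter was 1.49% ± 0.283 and the median 25.1 CPM. Among the 4 Coast leaf stages, the Inland 4leaf mean was nearest to Coast 2leaf in 62 members, to 4leaf in 19, to 6leaf in 11 and to 8leaf in 19. The same count for Inland 2leaf was 62, 25, 10 and 14. Many of these lay outside the Coast leaf range: the Inland 4leaf mean was above all 4 Coast means in 43 members and below all 4 in 18, and for Inland 2leaf these counts were 48 and 11. Without plant 4 of Inland 4leaf the nearest stage was Coast 2leaf in 64, 4leaf in 18, 6leaf in 10 and 8leaf in 19, with 46 above and 18 below all 4.

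Single members departed from the set median in both directions. At 2leaf, 65 of the 111 (58.6%) were within 2-fold of the Coast level, where 84.0% of all genes at the same minimum level were. Of the others, 34 were more than 2-fold lower in Inland and 12 more than 2-fold higher, and 6 of the 34 were more than 8-fold lower. The median log2 ratio of Inland over Coast at 2leaf was -0.21, and it was -0.20 over all genes at the same minimum level. In 4 members both Inland leaf groups and the Inland buds were under 1 CPM. Since the members were chosen for a high level in Coast 2leaf leaves, these ratios were not tested.

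The contrast was wider at the later stages, where the rule itself makes the Coast values lower. Inland 4leaf stood over Coast 4leaf by a median of 0.54 on the log2 scale, with 39 members more than 2-fold above and 19 more than 2-fold below. All genes at the minimum level had a median of -0.11 here, with 82.2% within 2-fold. Set against Coast 8leaf, Inland 4leaf was higher by a median of 2.14, where all genes at the minimum level had a median of -0.36. In this comparison 87 members were more than 2-fold above and 10 more than 2-fold below, while 69.7% of all genes at the minimum level were within 2-fold. Without plant 4 of Inland 4leaf the medians were 0.63 and 2.23, with 44 and 86 members more than 2-fold above. These too are descriptions, because the Coast values entered the rule.

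Whether the members also fell in the annual line was tested between Inland 4leaf and Inland 2leaf, whose plants the rule did not use. All 111 passed the filter on low counts. That filter also used the Coast 2leaf plants, where the rule asked for at least 5 CPM, so passing it does not show adequate counts in Inland. In 4 of the 111 both Inland leaf groups were under 1 CPM. In edgeR's quasi-likelihood test over 16735 genes, with Benjamini-Hochberg adjustment, 33 members were lower at 4leaf and 3 were higher. That is 29.7% of the members called lower, where 8.09% of all genes tested were called lower and 8.81% were called higher. The median LFC (log2 fold change) was -0.32 in the members and 0.00 in all genes tested. The remaining 75 did not pass the threshold of 0.05, which does not show that they were unchanged.

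Among the 33 that fell, the LFC ran from -2.89 to -0.44 with a median of -1.01, and the sign was the same in every library pool for all 33. The pools split the plants of the full fit, so here and below such signs are no separate test. Of the 3 that rose, 1 had the same sign in every pool. Without plant 4 of Inland 4leaf, 30 members were lower and 4 higher. The shares over all genes tested in that fit are not given, so these counts are not set against a background. With library size alone as the scaling, which moved the median of all genes tested to 0.24, the split was 25 lower (22.5%) and 11 higher (9.91%), where 2.69% of all genes tested were lower and 22.5% higher. The 557 genes of the mirrored set, of which 531 were tested, gave 67 higher (12.6%) and 8 lower (1.51%) in this comparison, with a median LFC of 0.15. Without plant 4 of Inland 4leaf they gave 50 higher and 13 lower, and their median LFC was -0.13.

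Pools taken singly have 2 or 3 plants per group, and there the calls among members were 4 lower and 4 higher in pool 1, 1 lower in pool 2, 23 lower in pool 3 and 3 lower in pool 4. Over all genes tested in the same fits, 0.772% were lower and 1.42% higher in pool 1, and 0.136%, 5.29% and 0.387% were lower in pools 2, 3 and 4. Pool 3 holds plant 4 of Inland 4leaf, and without that plant it gave 15 lower and 2 higher. By group means, the median log2 ratio of the members was -0.10, -0.12, -0.37 and 0.03 in pools 1 to 4 for Inland 4leaf over 2leaf. For Coast it was -0.63, -0.41, -1.24 and -0.79. The Coast values are those the rule selected on, so the 2 lines are set side by side without a comparison. In pool 4 the Inland median was not below 0. However, these ratios are scaled by library total alone, and 0 is not the level of other genes. Over all pools, the Inland median was 0.19 in all genes at the minimum level. In the members it was -0.11, or -0.06 without plant 4 of Inland 4leaf. No value over all genes is given for single pools, so nothing is read from the sign in pool 4.

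**Figure D3:**
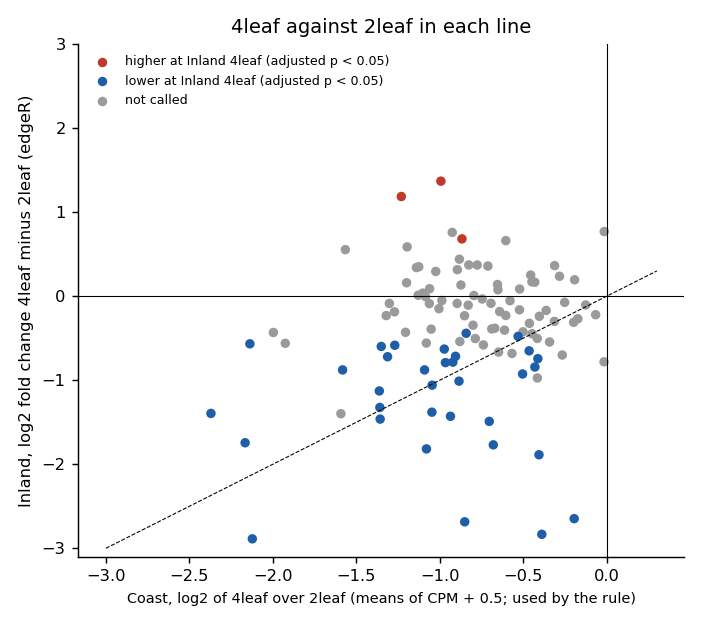
Each point is 1 of the 111 genes. The x axis is the log2 ratio of Coast 4leaf over 2leaf, which the rule used, and the y axis the edgeR log2 fold change of Inland 4leaf minus 2leaf, with the dashed line at equal values. Blue marks the 33 genes lower at Inland 4leaf, red the 3 higher, and grey the 75 not called.

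Migut.N00513 had one of the largest falls between the Inland leaf stages. It had 6.56 to 15.8 CPM at Inland 2leaf (median 9.55) and 0.418 to 2.66 CPM at 4leaf (median 1.49). The 2 groups did not overlap, and the LFC was -2.83 (SE 0.316, adjusted p = 5.06e-10, edgeR), with -3.35 to -2.19 within pools. This gene had its highest levels in buds, with a mean of 116 ± 27.8 CPM in Coast buds and 50.2 ± 22.5 CPM in Inland buds (SD, n = 10 plants each).

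Migut.K00463 had 12.1 to 30.4 CPM at Inland 2leaf (median 26.8) and 3.34 to 14.1 CPM at 4leaf (median 5.68). The ranges overlapped at their ends. Its LFC was -1.89 (SE 0.298, adjusted p = 2.73e-06, edgeR). In Inland buds its median was 0.688 CPM.

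The rise was clearest in Migut.B00434, with 15.5 to 57.1 CPM at Inland 2leaf (median 35.5) and 25.5 to 164 CPM at 4leaf (median 95.2). The groups overlapped, the LFC was 1.19 (SE 0.264, adjusted p = 0.000764, edgeR) and all 4 pools had the same sign. In Coast leaves over the same step its mean went the other way, from 113 ± 51.8 to 48.1 ± 14.4 CPM (SD, n = 10 plants each).

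Migut.M01746 had the larger fitted rise and the weaker support. Its values were 3.16 to 9.15 CPM at Inland 2leaf (median 4.78) and 2.55 to 47.8 CPM at 4leaf (median 13.2), so that the 4leaf plants covered the whole 2leaf range. The LFC was 1.37 (SE 0.343, adjusted p = 0.00298, edgeR). With voom and limma it was 0.78 with an adjusted p of 0.145, and within pool 2 the sign was negative, at -0.33.

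Inland buds had most of the members at a lower level than Inland leaves. Between Inland buds and Inland 2leaf, 88 members were lower and 12 higher. The background is high in this comparison, since buds and leaves are different organs, with 32.1% of all genes tested called lower and 41.7% higher. Against that, 79.3% of the members were lower and 10.8% higher. The median LFC was -2.08 in the members and 0.16 in all genes tested. Their summed share of the counts was 1.26% ± 0.283 in Inland buds (SD, n = 10 plants).

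Against Inland 4leaf the calls were 80 lower and 13 higher, with a background of 31.3% lower and 37.9% higher. Both comparisons share the Inland bud plants. Without plant 4 of Inland 4leaf, 81 were lower and 13 higher, and the shares over all genes in that fit are not given. Among the 88 lower than 2leaf, 57 had an LFC beyond -2, and 86 had the same sign in every pool. No share over all genes is given for these 2 counts. Library size alone as the scaling moved the median of all genes tested to 1.01 for Inland bud minus 2leaf. The members' median was then -1.21, with 69 lower (62.2%) and 17 higher (15.3%). Over all genes tested, 16.2% were lower and 66% higher with this scaling.

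The 33 members that fell between the Inland leaf stages went both ways in buds. Of them, 28 were lower in buds than at 2leaf and 5 were higher. Both comparisons use the same Inland 2leaf plants, so no relation between them is read from these counts. The 3 that rose between leaf stages were all lower in buds.

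Some members were close to absent from buds. In 8, the mean was under 1 CPM in the buds of both lines. Migut.F02053 had 8.92 to 20.7 CPM at Inland 2leaf (median 14.0) and 0 counts in all 10 Inland bud plants. With a floor of 3 counts over the group, or 0.102 CPM, it was at least 136-fold lower in Inland buds (adjusted p = 1.2e-19, edgeR).

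Migut.B00968 had 4.24 to 25.3 CPM at Inland 2leaf (median 10.7) and 2 counts over the 10 Inland bud plants. This is a ratio of 194.7, with an exact 95% interval of 53.6 to 1612 for counting error only (adjusted p = 4.8e-19, edgeR). In Coast buds the mean levels of these genes were 0.118 CPM for Migut.F02053 and 0.0690 CPM for Migut.B00968, so both were near absent from the buds of both lines. The folds of the 2 genes cannot be ranked, since the interval of the second holds the bound of the first.

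The opposite pattern was found in Migut.E01379, with 0.946 to 8.99 CPM at Inland 2leaf (median 3.20) and 28.6 to 104 CPM in Inland buds (median 50.2). The groups did not overlap, and the LFC was 2.83 (SE 0.275, adjusted p = 4.16e-14, edgeR). Between the Inland leaf stages its mean went from 4.25 ± 2.85 to 0.662 ± 0.426 CPM (SD, n = 10 plants each), and Coast buds had 16.5 ± 4.41 CPM against 8.01 ± 2.53 CPM at Coast 2leaf.

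Migut.E00828 rose in Inland buds from 0.571 to 3.55 CPM over the 2leaf plants (median 1.13) to 1.31 to 69.2 CPM over the bud plants (median 14.1). The bud plants were scattered and the groups overlapped. The LFC was 2.95 (SE 0.497, adjusted p = 3.91e-07, edgeR), but it was 0.57 within pool 3 and 1.64 within pool 2, and neither passed the threshold.

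Coast buds could be set within their own line only beside the Coast leaf means that the rule used. In 25 members the Coast bud mean was above that of Coast 2leaf, in 56 it lay between 8leaf and 2leaf, and in 30 it was below 8leaf. In 86 members the Coast bud mean was thus below Coast 2leaf, where 25.6% of all genes at the same minimum level were below and their median log2 ratio of Coast bud over 2leaf was 0.76. The median of the members' Coast bud means was 9.55 CPM, above the 3.93 CPM of Coast 8leaf, and the summed share was 0.698% ± 0.112 of the counts (SD, n = 10 plants). Of the 25 with the bud above 2leaf in Coast, 11 (44%) were also called higher in Inland buds than in Inland 2leaf. That share was 10.8% over the 111 members and 41.7% over all genes tested. These 11 made up 91.7% of the 12 members called higher in Inland. Of the 86 with the bud below 2leaf in Coast, 78 were called lower in Inland buds. That call was made for 79.3% of the members and 32.1% of all genes tested. The overlap between the lines was not tested.

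**Figure D4:**
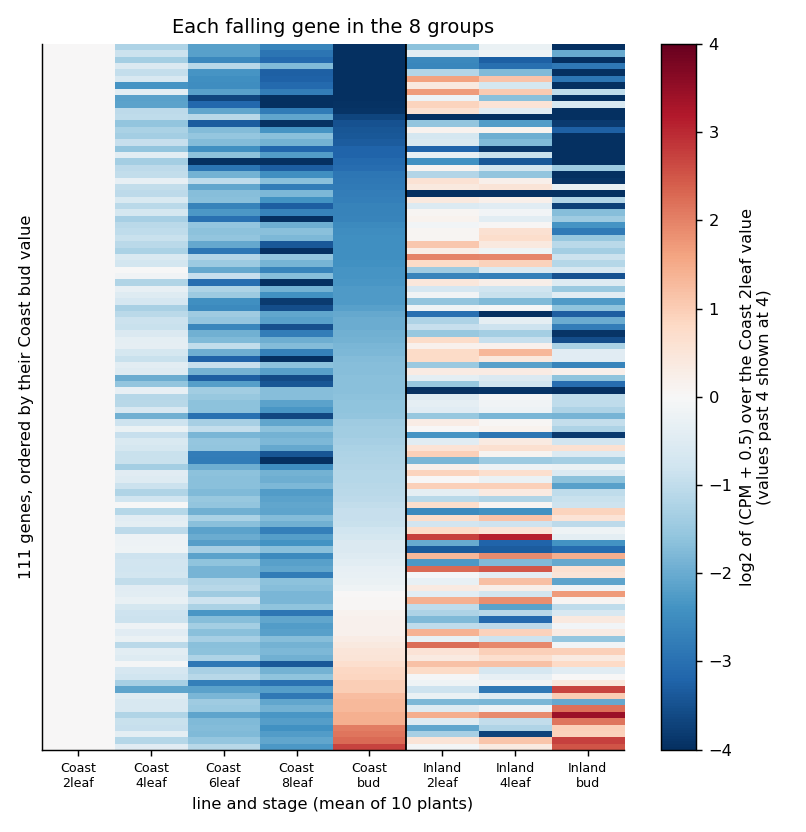
Each row is 1 of the 111 genes and each column a group mean of 10 plants, coloured by the log2 of CPM + 0.5 over the Coast 2leaf value, with values past 4 shown at 4. Rows are ordered by the Coast bud value, and the 25 genes above Coast 2leaf in Coast buds are at the bottom.

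Between the buds of the 2 lines, 46 members were lower in Coast and 31 higher. The background was 32.7% lower and 31.4% higher over all genes tested, against 41.4% lower and 27.9% higher in the members. The share of members called was thus near that of all genes, with somewhat more of them lower in Coast. The median LFC of Coast minus Inland was -0.27 in the members and -0.01 in all genes tested. By size, 13 of the lower and 11 of the higher differed by more than 2 on the log2 scale. The sign was the same in every pool for 43 of the 46 and for 30 of the 31.

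Migut.H02180 had 0.479 to 4.19 CPM in Coast buds (median 1.96) and 16.9 to 38.3 CPM in Inland buds (median 26). The groups did not overlap, with an LFC of -3.66 (SE 0.253, adjusted p = 1.75e-19, edgeR). Migut.E00440 had 0 to 1.80 CPM in Coast buds (median 1.05) and 3.82 to 20.8 CPM in Inland buds (median 15.4), also without overlap. Its LFC was -3.70 (SE 0.363, adjusted p = 1.81e-13, edgeR). Both genes were also higher by group mean in Inland than in Coast leaves, with 89.8 ± 13.0 CPM at Inland 2leaf and 27.5 ± 6.79 CPM at Coast 2leaf for Migut.E00440 (SD, n = 10 plants each).

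Migut.N03300 had 30.9 to 94.3 CPM in Coast buds (median 61.1) and 0.457 to 6.13 CPM in Inland buds (median 2.97). The groups did not overlap, and the LFC was 4.13 (SE 0.260, adjusted p = 2.96e-21, edgeR). The same order held by group means in leaves, with 202 ± 58.7 CPM at Coast 2leaf against 8.59 ± 1.49 CPM at Inland 2leaf (SD, n = 10 plants each). Over the Inland leaf stages it did not fall by group mean, having 12.8 ± 2.58 CPM at 4leaf.

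Migut.G00473 had 7.46 to 124 CPM in Coast buds (median 62.3) and 0.580 to 27.3 CPM in Inland buds (median 2.92). The lowest Coast plant lay inside the Inland range, and the LFC was 3.19 (SE 0.341, adjusted p = 3.39e-12, edgeR). The LFC was 4.31 without plants 6 and 7 of Inland bud. Over all members, leaving out those plants gave 46 lower in Coast buds and 33 higher, and the shares over all genes in that fit are not given.

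**Figure D5:**
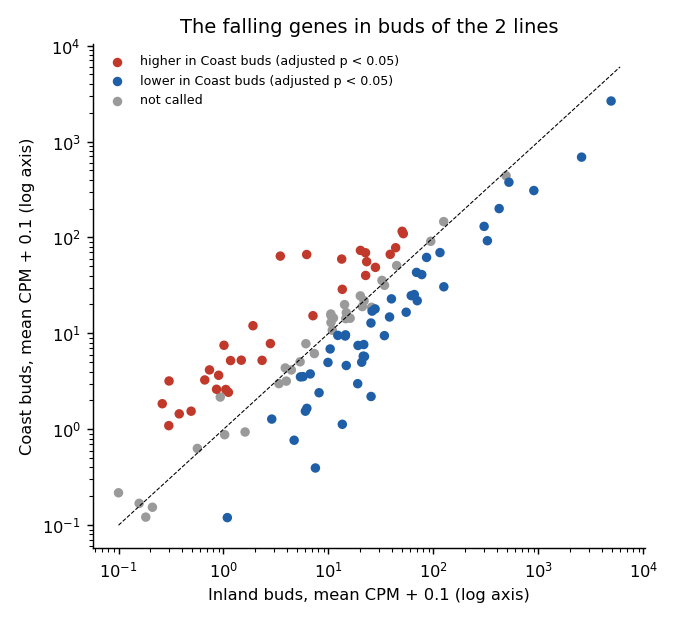
Mean CPM + 0.1 of each of the 111 genes in Inland buds (x axis) and Coast buds (y axis), both on log axes, with the dashed line at equal levels. Red marks the 31 genes higher in Coast buds, blue the 46 lower and grey those not called.

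Over the 80 libraries, with every plant included, the members also varied together from plant to plant within a group. Over 59 members with high enough counts, the median correlation between pairs of members was 0.33, after removing group means from the 80 libraries. It was 0.07 over pairs of 5126 genes that passed the same filter on counts. A correlation of at least 0.5 was found in 19.3% of pairs of members and 4.52% of pairs of all those genes. Sharing a filter does not match the members and all those genes for level. By the rule, the members had lower levels at the later Coast leaf stages. How much of the contrast rests on a difference in level was not tested. All pairs share the same libraries, depths and pools, and the correlations are a description. The libraries include the 40 Coast leaf ones, whose means the rule used to choose the members. They also include the Inland library that stood apart and the low Coast plant described with it. No correlation without these plants or without the Coast leaf libraries is given. How much of the contrast with all genes rests on them was not tested. The most alike pair was Migut.D00067 and Migut.K01390, at 0.93 over 80 libraries, singled out here after its values were seen.

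By identifier, the members lay on all 14 linkage groups of the v2.0 assembly, with 12 on linkage group 8, 11 on linkage groups 2 and 13 each, and 3 not placed. Linkage group 8 held 10.8% of the members and 9.86% of all genes at the minimum level. In 4 pairs, which hold 7 members, the gene numbers were adjacent. Neighbouring genes may be near-identical copies between which 3′ reads cannot be split with certainty, and this was not tested.

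Of 89 genes that the study pairs with identifiers, most of them hubs of co-expression modules or hormone and sodium pathway genes, 2 met the falling rule and were left out of the 111. Migut.N01563, an auxin-responsive gene, had 6.00 ± 2.02 CPM at Coast 2leaf and 1.29 ± 1.27 CPM at 8leaf. It was much higher in Inland leaves, at 51.4 ± 12.9 CPM at 2leaf and 46.1 ± 32.1 CPM at 4leaf (SD, n = 10 per group). Migut.I00834, whose identifier is not printed in the running text of the study, was taken as GA3ox1 from a pathway drawing. GA3ox1 is an enzyme that forms bioactive gibberellin. Migut.I00834 had 55.2 ± 24.9 CPM at Coast 2leaf and 41.7 ± 17.8 CPM at 4leaf, then 28.7 ± 10.2 CPM at 6leaf and 16.9 ± 9.19 CPM at 8leaf. In Inland leaves it had 8.04 ± 2.95 CPM at 2leaf and 1.44 ± 1.47 CPM at 4leaf. All 6 of the study's cell division hub genes met the mirrored rule, with rising group means in Coast leaves, as did the 557 genes above. These 6 are hubs of 1 co-expression module, chosen by the study for following its shared pattern in these data, so they are not separate observations. None of the 7 photosynthesis hub genes met either rule.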

How the data were processed

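Counts per gene were deposited as raw whole numbers. The authors trimmed reads with cutadapt, aligned them with BWA to the M. guttatus v2.0 genome, filtered alignments with SAMtools and counted with HTSeq 0.6.1. Such counts were not normalised. The table held 28140 genes, with 2988 at a total of 0. Each CPM value is a count over the library total. Members and gene lists were chosen with earlier results of these data known.

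Tests used edgeR 4.0.16 (R 4.3.3) on 60 libraries (2leaf, 4leaf and bud of both lines), fitting line, stage and their interaction after filterByExpr and TMM, and its quasi-likelihood F test. p-values were adjusted by Benjamini-Hochberg over 16735 genes, with a threshold of 0.05. The fit was tested on simulated data. Alternatives were voom with limma 3.58.1, DESeq2 1.42.0, other scalings, no filter, library pool as a term, and left-out libraries. Genes were named by rule: in Inland 4leaf minus 2leaf, Inland bud minus 2leaf and Coast minus Inland bud, the 2 members with the largest LFC in each direction among those called with at least 10 CPM in a compared group, then the 2 largest Coast ratios and the 2 highest Coast 2leaf levels. Plants were separate individuals of 1 accession per line. No library pair was identical.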

Additional observations from a re-analysis of the deposited data

Results flagged for a closer look

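Within groups of 10 plants, 48 sets of values were examined for a highest or lowest plant far from the rest (a gap to the next plant, over the range, above Dixon's 95% critical value), and 7 were found. Chance gives about 1 in 20 for values with a normal spread, which CPM of sparse genes do not have. The members' mean log2(CPM + 0.5) was 3.48 in plant 4 of Inland 4leaf, and the next plant was at 4.29. Migut.M01746 had 47.8 CPM in plant 2 of Inland 4leaf with the next at 26.5, and 9.15 CPM in plant 10 of Inland 2leaf with the next at 6.05. Migut.B00968 had 0.409 CPM in plant 9 of Inland bud and 0.164 in the next, each from 1 count, so that their gap is one of library totals. Migut.G00473 had 27.3 CPM in plant 7 of Inland bud and 11.1 in the next. Migut.F02093 had 4.26 CPM in plant 1 of Coast 6leaf with the next at 1.44, and its only count at Coast 8leaf was in plant 6, at 0.198 CPM, where a single count sets the gap. The cause was not tested.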

How the results depend on the processing

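The number of members depended on the rule's settings. It was 211 with TMM-scaled CPM, 250 at a fold of 2 and 73 at a fold of 4, and the 111 were all among the first 2 of these. Group medians gave 112 genes, of which 99 were among the 111. Leaving out plant 9 of Coast 2leaf gave 120 genes, with 109 of the 111. Within pools 1 to 4 alone the rule gave 83, 79, 124 and 161 genes, which held 65, 61, 83 and 91 of the 111. With TMM-scaled CPM the members called were 58 for Inland 4leaf minus 2leaf (12 higher), 186 for Inland bud minus 2leaf (159 lower, 27 higher), 178 for Inland bud minus 4leaf (148 lower, 30 higher) and 141 for Coast minus Inland bud (80 lower, 61 higher). At a fold of 2 they were 66 (54 lower, 12 higher), 225 (195 lower, 30 higher), 220 (187 lower, 33 higher) and 163 (91 lower, 72 higher). These settings were added after seeing the data, as was pool 3 without plant 4 of Inland 4leaf. For Inland 4leaf minus 2leaf, pools 1 to 4 alone called 8, 1, 23 and 3 members (4, 1, 23 and 3 lower, and 0 higher in pools 2, 3 and 4), pool 3 without that plant called 17 (15 lower), and library size alone called 11 higher. In Inland bud minus 2leaf pool 2 called 6 higher, and in Inland bud minus 4leaf pool 3 called 52 lower. For Coast minus Inland bud, pool 3 called 27 (19 lower, 8 higher), or 39 (27 lower, 12 higher) without that plant, pool 4 called 42 (21 lower), and pools 1 and 2 called 17 and 20 higher. With fewer plants per pool, fewer calls follow by construction.

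Other alternatives kept these counts within 1.5 times. The replicate block, with plant number as a term, called 35 lower and 3 higher for Inland 4leaf minus 2leaf, and 87 lower and 12 higher for Inland bud minus 2leaf. Numbers did not pair plants: 7 of 40 same-numbered pairs had a correlation over 0.1, with a median of -0.0037. For the 12 genes named from tests, 119 of 120 fits outside pools gave the same call and sign, the exception being Migut.M01746 with voom. Within pools 47 of 60 did, 12 lost the call, and Migut.M01746 reversed in pool 2, at -0.33. At 0 to 2 counts over a group, as for Migut.F02053, Migut.B00968 and Migut.F02093, depth limits the fold to a bound or a wide interval.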
